A study of Bos taurus with 4 samples.

Results

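Nutrient carriers of the early bovine embryo were described here as the genes of 10 solute carrier families that move sugars, monocarboxylates and amino acids across membranes. The members were every transcript whose bovine RefSeq symbol begins with SLC1A, SLC2A, SLC3A, SLC5A, SLC6A, SLC7A, SLC16A, SLC36A, SLC38A or SLC43A, which gave 77 transcript accessions of 76 genes among the 14517 accessions measured. One of them, SLC7A6OS, carries the name of the gene on the strand opposite SLC7A6 and is not itself a carrier, so results are also given without it. Polyadenylated RNA had been sequenced from bovine (Bos taurus) embryos that had reached 8 to 16 cells, collected on day 3 after insemination, following siRNA injection into zygotes. The control embryos had received negative control siRNAs (NC, 2 libraries). The KDM5_KD group, also 2 libraries, is labelled as a knockdown of the histone H3 lysine 4 demethylase genes KDM5A, KDM5B and KDM5C. For KDM5_KD replicate 2 the labels conflict: the treatment field lists siRNAs against KDM6A, KDM6B and KDM6C, although the title calls the library a Kdm5 knockdown. That library was grouped by its title. How many embryos went into a library, and whether the libraries came from separate collections, is not given in the sources used here, so p-values measure only the spread between these libraries.

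Cells take up most nutrients through such carriers, because sugars and amino acids do not cross a lipid membrane unaided. Facilitative carriers let a substrate run down its gradient, while secondary active carriers couple uptake to sodium, chloride or protons, and the sodium gradient is kept up by the sodium pump. Several amino acid carriers are built from a light chain that transports and a heavy chain that brings it to the surface. Early cleavage embryos rely mainly on pyruvate, lactate and amino acids and increase their use of glucose later, towards the blastocyst stage.

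KDM5A was at 28.4 and 27.1 FPKM (the fragments of a transcript divided by its length and by the library's mapped fragments) in NC against 10.5 and 10.1 FPKM in KDM5_KD. KDM5C was at 28.1 and 40.6 against 15.1 and 17.8 FPKM, and KDM6A was at 7.63 and 11.3 against 7.90 and 9.29 FPKM. Both KDM5 transcripts were therefore lower in each library labelled as a knockdown, including the one with the conflicting treatment entry, whereas the KDM6A groups overlapped. In the limma test described below, KDM5A passed (adjusted p of 0.0333) and KDM5C did not (adjusted p of 0.123). Of the 6 genes listed as siRNA targets, only these 3 were among the accessions measured. The others, KDM5B among them, could not be checked. Library sums lay between 283347 and 322267 FPKM, and 8427 to 9160 transcripts reached 1 FPKM. Without microRNAs the sums lay between 279259 and 290051 FPKM. Read totals are unknown, but the steps between low values put the depth of the other 3 libraries at 0.683 to 0.802 times that of NC replicate 2. All 17 transcripts of the egg and early embryo marker list were at 1 FPKM or more in every library, with sums of 676 and 522 FPKM in NC and of 792 and 936 FPKM in KDM5_KD and a list median of 0.44 on the log2 scale. Sperm and leukocyte markers summed to 2.64 to 4.83 FPKM.

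Markers of cumulus and granulosa cells, the somatic cells that surround the egg, differed between the groups and are given before the carriers for that reason. The 22 marker transcripts summed to 43.6 and 30.0 FPKM in NC and to 97.8 and 87.2 FPKM in KDM5_KD. Of the 15 that were tested, 13 lay above both NC libraries in both KDM5_KD libraries (35.1% of all transcripts tested). None passed the test, and the list median was 1.01 on the log2 scale. COL1A2, GREM1, VCAN and INHA, all among the 13, had an NC mean under 1 FPKM. They could only be tested because they were higher in KDM5_KD, which also raises the count and the median. The highest was LUM, a matrix proteoglycan gene, at 4.02 and 5.12 against 23.8 and 15.6 FPKM (limma adjusted p of 0.0610). The gonadotropin receptor genes FSHR and LHCGR were listed at 0 in both NC libraries and at no more than 0.0443 FPKM in KDM5_KD. The part of these cells in the carrier differences below was not tested. In RNA from whole embryos, fewer cells of a type and less RNA per cell cannot be told apart.

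The carriers had a strongly uneven profile. SLC2A3, the high-affinity neuronal-type glucose carrier GLUT3, and SLC1A5, the glutamine and neutral amino acid exchanger ASCT2, together made up 66.4% to 68.5% of the carriers' summed FPKM in the 4 libraries, leaving out SLC7A6OS. SLC2A3 ranked 40th and SLC1A5 67th among all 14517 accessions by mean FPKM, a scale that is per length and allows levels of different genes to be compared. Summed over all carriers, still without SLC7A6OS, the libraries held 1478 and 1658 FPKM in NC and 1435 and 1467 FPKM in KDM5_KD. These summed levels were lower in the KDM5_KD libraries than in NC by less than the NC libraries differed from each other.

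**Figure D1:**
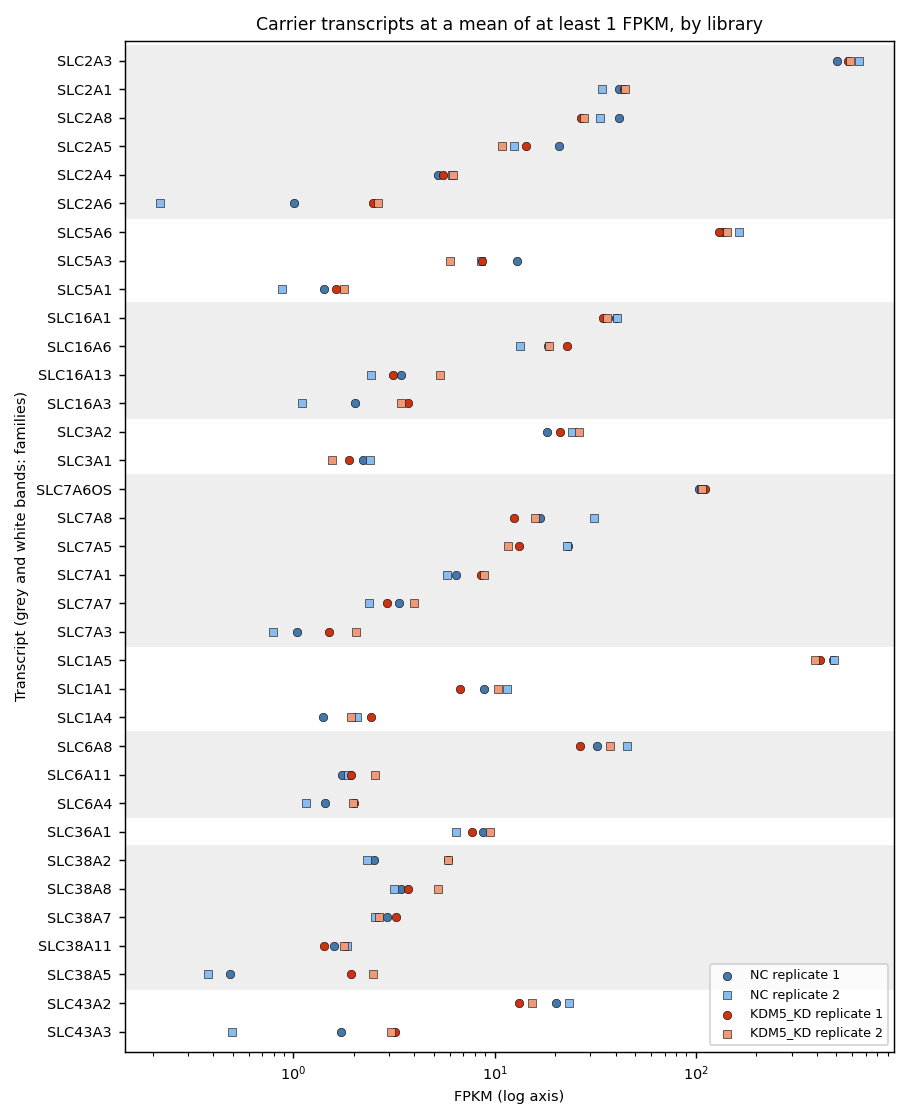
FPKM (log axis) of 35 of the 37 tested transcripts in each of the 4 libraries, grouped by family in grey and white bands; circles and squares are replicates 1 and 2, blue is NC and red is KDM5_KD. SLC2A3 and SLC1A5 lie above 390 FPKM in every library, while most transcripts lie under 50 FPKM.

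Differences between the groups were tested over the whole table with limma on log2(FPKM + 1), for the 8970 transcripts with a mean of at least 1 FPKM. Of the 77 carrier accessions, 37 reached that mean and 40 did not. None of the 37 passed at an adjusted p under 0.05, where 0.279% of all transcripts tested passed (0.19% higher and 0.0892% lower). Without adjustment, 10 of the 37 had a limma p under 0.05, against 17.5% of all transcripts tested. These were 6 members higher in KDM5_KD, where 14.3% of all transcripts were, and 4 lower, where 3.12% were. By size, a difference of at least 1 on the log2(FPKM + 1) scale is called 2-fold here and below. On that scale, 4 members were at least 2-fold higher in KDM5_KD (4.52% of all transcripts) and 0 were at least 2-fold lower (0.301%). SLC16A3 was not counted, although its mean FPKM in KDM5_KD was 2.28 times that in NC. In 15 members both KDM5_KD libraries lay above both NC libraries (35.1% of all transcripts), and in 8 both lay below (15.6%). The median difference was 0.16 on the log2 scale over the 37 members, 0.17 without SLC7A6OS, and 0.09 over all transcripts tested. SLC2A6, SLC38A5 and SLC7A3 had an NC mean under 1 FPKM and entered the test through their KDM5_KD values, so they could only be tested because they were higher there.

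**Figure D2:**
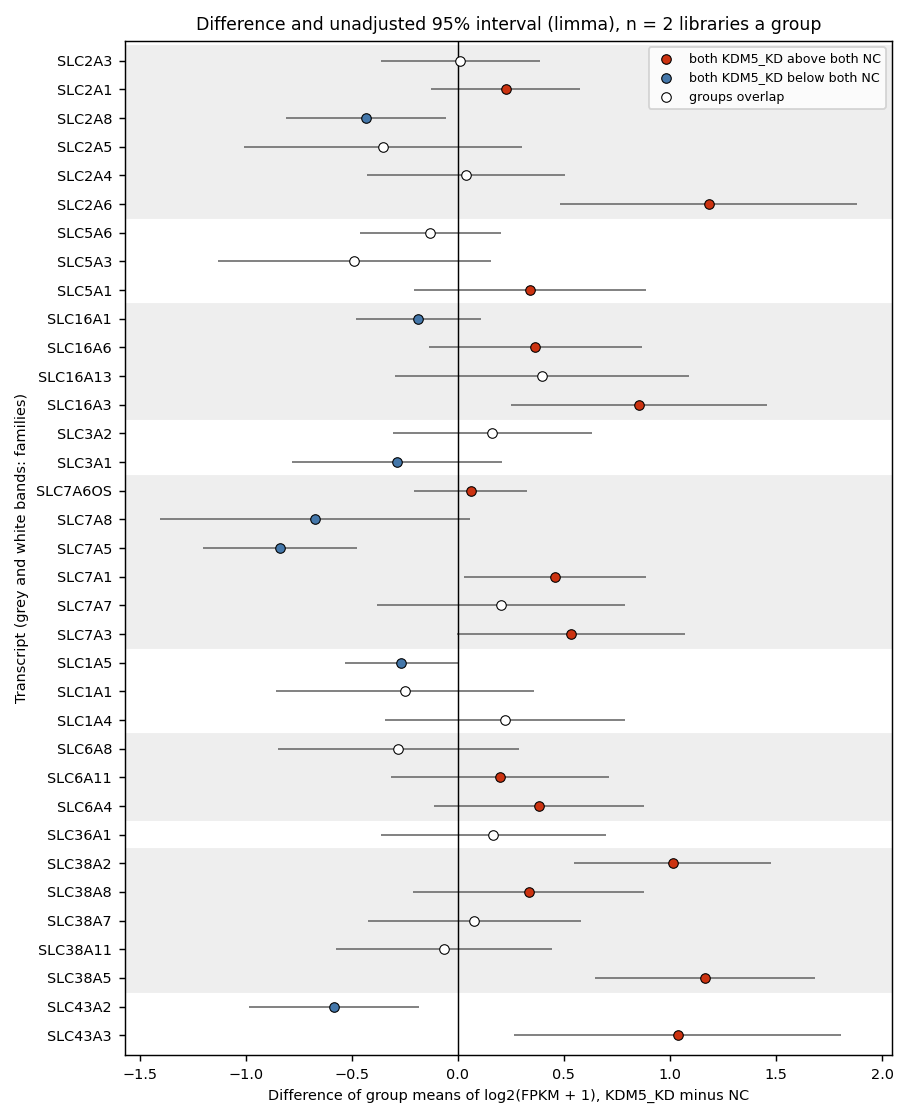
Difference of the group means of log2(FPKM + 1), KDM5_KD minus NC, for 35 of the 37 tested transcripts, with the unadjusted 95% interval from limma; red points have both KDM5_KD libraries above both NC libraries, blue points both below, and white points overlap. The values run from -0.84 (SLC7A5) to 1.18 (SLC2A6), and none passed after adjustment.

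Among the facilitative hexose carriers, 6 of 11 transcripts were tested. SLC2A3 was at 501 and 651 FPKM in NC against 568 and 585 FPKM in KDM5_KD. Both KDM5_KD values lay between the NC values, and its difference was 0.01 (95% interval -0.36 to 0.39, limma adjusted p of 0.976). Its sign turned under median-ratio scaling and under a common library sum without microRNAs. SLC2A1, the widely expressed glucose carrier GLUT1, was at 41.8 and 34.2 FPKM in NC against 44.2 and 44.6 FPKM in KDM5_KD. The ratio of SLC2A3 to SLC2A1 was 12.0 and 19.0 in NC and 12.9 and 13.1 in KDM5_KD, so GLUT3 was the more abundant transcript in every library. SLC2A8, the mainly intracellular hexose carrier GLUT8, was at 41.7 and 33.3 FPKM in NC against 26.8 and 27.9 FPKM in KDM5_KD. Its groups did not overlap and its level in KDM5_KD was 72.9% of that in NC, but its difference of -0.43 (SE 0.154) did not pass (limma adjusted p of 0.241).

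The other tested hexose carriers were at lower levels. SLC2A6, which encodes the lysosomal carrier GLUT6, was at 1.01 and 0.217 FPKM in NC against 2.48 and 2.62 FPKM in KDM5_KD. This was the largest difference among the carriers, 1.18 (SE 0.287, limma adjusted p of 0.144), although the NC libraries themselves differed several fold. It was 0.82 with NC replicate 1 as the only control and 1.55 with NC replicate 2 as the only control. The fructose carrier SLC2A5 and the insulin-responsive carrier SLC2A4, both picked after their values were seen, had overlapping groups. SLC2A5 was at 20.9 and 12.6 against 14.3 and 10.9 FPKM. SLC2A4 was at 5.25 and 6.14 against 5.52 and 6.22 FPKM. SLC2A2, the liver and pancreas type GLUT2, and SLC2A12 were listed at 0 in all 4 libraries, and SLC2A10, SLC2A11 and SLC2A13 did not reach the mean of 1 FPKM.

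In the sodium-driven SLC5A family, 3 of 11 transcripts were tested, and the most abundant was not a sugar carrier. SLC5A6, which takes up biotin and pantothenate, was at 137 and 165 FPKM in NC against 131 and 144 FPKM in KDM5_KD, behind only SLC2A3 and SLC1A5 among the carriers by mean level. Its groups overlapped (difference -0.13, limma adjusted p of 0.674). SLC5A3 imports myo-inositol, a compound that cells use as an osmolyte, and was at 13.0 and 8.55 FPKM in NC against 8.66 and 6.04 FPKM in KDM5_KD. Its groups overlapped only by the margin between 8.55 and 8.66 FPKM (difference -0.49, SE 0.264, limma adjusted p of 0.399). SLC5A1, the sodium-glucose carrier of gut and kidney, was at 1.43 and 0.883 against 1.63 and 1.79 FPKM, with both KDM5_KD libraries above both NC libraries (difference 0.34, limma adjusted p of 0.486). Sodium-driven glucose uptake genes were thus at a few FPKM at most, since SLC5A2 did not exceed 0.374 FPKM in any library. SLC5A4, SLC5A7 and SLC5A12 were listed at 0 throughout, and SLC5A8, SLC5A9, SLC5A10 and SLC5A11 were under the filter.

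Of the monocarboxylate carriers, 5 of 9 transcripts were tested. SLC16A1, or MCT1, carries lactate and pyruvate in most tissues and was at 40.1 and 40.8 FPKM in NC against 34.7 and 36.2 FPKM in KDM5_KD. The NC replicates differed by less than the groups did, and KDM5_KD held 87.6% of the NC level, with a difference of -0.19 (SE 0.121) that did not pass (limma adjusted p of 0.481). SLC16A3, or MCT4, is best known as a lactate exporter of glycolytic cells, and was picked after its values were seen. It was at 2.03 and 1.11 FPKM in NC against 3.73 and 3.41 FPKM in KDM5_KD, a difference of 0.85 (SE 0.247, limma adjusted p of 0.181). MCT1 and MCT4 transcripts therefore stood in ratios of 19.8 and 36.8 in NC and of 9.28 and 10.6 in KDM5_KD, with MCT1 more abundant throughout. SLC16A6, a carrier linked to ketone bodies and taurine, was at 18.5 and 13.4 against 22.8 and 18.6 FPKM, a separation of the groups by a margin smaller than the spread within either. SLC16A13 was at 3.42 and 2.44 against 3.11 and 5.39 FPKM, with overlapping groups. SLC16A7, which encodes the high-affinity pyruvate carrier MCT2, was listed at 0 in 3 libraries and at 0.063 FPKM in KDM5_KD replicate 1, and SLC16A4, SLC16A10 and SLC16A14 were under the filter.

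Among the heavy and light chains of the heteromeric amino acid carriers, SLC7A5, SLC7A8 and SLC3A1 lay below both NC libraries in both KDM5_KD libraries, as did 15.6% of all transcripts tested. The groups of SLC3A2 and SLC7A7 overlapped. SLC3A2, the heavy chain 4F2hc (CD98), was at 18.2 and 24.2 FPKM in NC against 21.3 and 26.2 FPKM in KDM5_KD, with overlapping groups. SLC7A5 is its light chain LAT1, which exchanges large neutral amino acids such as leucine, and was at 23.2 and 22.8 FPKM in NC against 13.2 and 11.7 FPKM in KDM5_KD. In KDM5_KD it was at 54.1% of the NC level, with replicates that lay close together in both groups. Its difference of -0.84 (SE 0.149, 95% interval -1.20 to -0.48) was the largest negative one among the carriers and had the smallest limma adjusted p of the 37, 0.106. SLC7A8, the related light chain LAT2, was at 16.8 and 31.4 FPKM in NC against 12.5 and 15.8 FPKM in KDM5_KD. Its difference of -0.67 (SE 0.299, limma adjusted p of 0.317) depended on the control library. With NC replicate 1 as the only control it was -0.24, and with NC replicate 2 it was -1.11. SLC7A7, the y+LAT1 light chain for cationic and neutral amino acids, was at 3.34 and 2.38 against 2.92 and 3.96 FPKM, and SLC7A10 did not exceed 0.255 FPKM. SLC7A6 and SLC7A11, which also pair with SLC3A2, were not analysed here.

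Setting the light chains against their heavy chain removes the scaling between libraries. The summed light chains SLC7A5, SLC7A7, SLC7A8 and SLC7A10 were at 2.39 and 2.35 times the level of SLC3A2 in NC and at 1.35 and 1.21 times in KDM5_KD. SLC7A5 alone was at 1.28 and 0.943 times SLC3A2 in NC and at 0.622 and 0.445 times in KDM5_KD. These ratios of levels were lower in both KDM5_KD libraries than in both NC libraries, and were not tested. The other heavy chain, SLC3A1, which pairs with SLC7A9 in cystine and dibasic amino acid uptake, was at 2.22 and 2.40 against 1.89 and 1.55 FPKM (difference -0.29, limma adjusted p of 0.519). SLC7A9 did not exceed 0.438 FPKM in any library.

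SLC7A1 and SLC7A3, cationic amino acid carriers of the same family, lay above both NC libraries in both KDM5_KD libraries, as did 35.1% of all transcripts tested. SLC7A1, or CAT1, the widespread importer of arginine and lysine, was at 6.42 and 5.81 FPKM in NC against 8.59 and 8.92 FPKM in KDM5_KD. Its difference was 0.46 (SE 0.175, limma adjusted p of 0.266), and the groups did not overlap. SLC7A3, or CAT3, was at 1.04 and 0.793 against 1.51 and 2.05 FPKM (difference 0.53, limma adjusted p of 0.289). Both genes were picked after their values were seen, and SLC7A3 entered the test through its KDM5_KD values. The ratio of SLC7A5 to SLC7A1 was 3.61 and 3.92 in NC and 1.54 and 1.31 in KDM5_KD. This ratio restates the opposite differences of SLC7A5 and SLC7A1 and is no separate result. SLC7A6OS was at 104 and 106 against 111 and 108 FPKM, and because strand-specific counting is not stated, reads from it and from SLC7A6 on the opposite strand cannot be told apart. SLC7A4 and SLC7A14 were under the filter.

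In the SLC1A family, SLC1A5 was at 482 and 484 FPKM in NC against 413 and 390.0 FPKM in KDM5_KD. The groups were further apart than the replicates within either, with KDM5_KD at 83.1% of the NC level, yet the difference of -0.27 (SE 0.109, 95% interval -0.53 to -0.00) did not pass (limma adjusted p of 0.285). SLC1A1, the glutamate and aspartate carrier EAAT3, was at 8.91 and 11.6 FPKM in NC against 6.73 and 10.4 FPKM in KDM5_KD. SLC1A4, the ASCT1 exchanger of alanine, serine and cysteine, was at 1.40 and 2.08 against 2.43 and 1.93 FPKM. The groups of both overlapped, and the sign of SLC1A4 turned after quantile normalization. Transcripts of the glial and neuronal glutamate carriers SLC1A3, SLC1A6 and SLC1A7 reached at most 0.0510 FPKM in any library, with SLC1A6 listed at 0 throughout.

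Of the 14 transcripts of the sodium- and chloride-driven SLC6A family, 4 were tested, and 10 were under the filter. SLC6A8, the creatine carrier, was at 32.3 and 45.8 FPKM in NC against 26.5 and 37.4 FPKM in KDM5_KD, with overlapping groups (difference -0.28, limma adjusted p of 0.583). The GABA carrier SLC6A11 and the serotonin carrier SLC6A4 were under 3 FPKM. SLC6A11 was at 1.75 and 1.86 against 1.94 and 2.53 FPKM. SLC6A4, picked after its values were seen, was at 1.44 and 1.16 against 2.01 and 1.97 FPKM. Neither overlapped between groups, and both were higher in KDM5_KD, where 35.1% of all transcripts tested lay above without overlap. Their limma adjusted p values were 0.677 and 0.391, and the sign of SLC6A11 turned after quantile normalization. The glycine carrier SLC6A9, known for glycine accumulation in mouse preimplantation embryos, had 2 accessions, and neither exceeded 0.265 FPKM in a library. The taurine carrier SLC6A6 did not exceed 0.134 FPKM.

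SLC36A1, the proton-driven amino acid carrier PAT1 found on lysosomes, was the only tested member of its family. It was at 8.79 and 6.41 FPKM in NC against 7.75 and 9.47 FPKM in KDM5_KD, with overlapping groups and a sign that turned after quantile normalization. SLC36A2 and SLC36A4 were under the filter.

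The SLC38A family held 2 of the 4 carriers that were at least 2-fold higher in KDM5_KD, where 4.52% of all transcripts tested were. SLC38A2, or SNAT2, is a sodium-driven importer of small neutral amino acids and is widely used as a marker of amino acid shortage, when its transcription rises. It was at 2.50 and 2.32 FPKM in NC against 5.88 and 5.87 FPKM in KDM5_KD, a separation many times the spread within either group. Its difference was 1.01 (SE 0.190, 95% interval 0.55 to 1.48), with a limma adjusted p of 0.107. SLC38A5, or SNAT5, moves glutamine, asparagine, histidine and glycine, and was at 0.484 and 0.377 FPKM in NC against 1.94 and 2.50 FPKM in KDM5_KD. Its difference was 1.17 (SE 0.212, limma adjusted p of 0.107). With an NC mean under 1 FPKM, SLC38A5 could only be tested because it was higher in KDM5_KD. Neither SLC38A2 nor SLC38A5 depended on a single control library. Against NC replicate 1 and NC replicate 2 alone, the differences were 0.97 and 1.05 for SLC38A2 and 1.11 and 1.22 for SLC38A5. NC replicate 1 lay above NC replicate 2 for SLC38A2 and SLC38A5, as it did for SLC2A6, SLC43A3 and SLC16A3, whose NC values lay further apart. The 1 FPKM added before taking log2 narrows the gap between NC values as low as those of SLC38A5. These 5 carriers had the largest positive differences of all members, so their direction was set by that choice. The summed cumulus and granulosa markers and the summed egg and embryo markers given above were also higher in KDM5_KD. The part of the somatic cells in these differences was not tested.

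The remaining tested members of the family had smaller differences. SLC38A8 was at 3.42 and 3.16 against 3.70 and 5.22 FPKM, with both KDM5_KD libraries above both NC libraries (difference 0.33). SLC38A7, a lysosomal glutamine exporter, was at 2.92 and 2.54 against 3.23 and 2.66 FPKM, and its sign turned under median-ratio scaling and quantile normalization. SLC38A11 was at 1.59 and 1.84 against 1.42 and 1.78 FPKM, and the groups of SLC38A7 and of SLC38A11 overlapped. The limma adjusted p values of the 3 lay between 0.490 and 0.904. SLC38A9, the lysosomal arginine sensor that acts on mTORC1, was the member just under the filter, with a mean of 0.972 FPKM and values of 0.587 and 0.969 against 1.37 and 0.958 FPKM. SLC38A4, an imprinted carrier in mice, was listed at 0 in all libraries, and SLC38A3 was under the filter.

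The SLC43A family split in direction. SLC43A2, or LAT4, which lets large neutral amino acids pass down their gradient, was at 20.1 and 23.6 FPKM in NC against 13.2 and 15.3 FPKM in KDM5_KD. It was at 65.2% of the NC level, with a difference of -0.58 (SE 0.164, 95% interval -0.98 to -0.18) and a limma adjusted p of 0.174. SLC43A3, a carrier of purine nucleobases, was at 1.72 and 0.499 FPKM in NC against 3.21 and 3.07 FPKM in KDM5_KD, a difference of 1.04 (SE 0.315, limma adjusted p of 0.195). It was 0.61 with NC replicate 1 as the only control and 1.47 with NC replicate 2. SLC43A1, or LAT3, did not exceed 0.903 FPKM. When the carriers of large neutral amino acids were grouped after their values had been seen, SLC7A5, SLC7A8, SLC43A1 and SLC43A2 summed to 60.3 and 78.3 FPKM in NC and to 39.3 and 43.7 FPKM in KDM5_KD. SLC38A2 and SLC38A5, the members of their family with the largest increases, summed to 2.99 and 2.69 FPKM in NC and to 7.82 and 8.37 FPKM in KDM5_KD. Both sums restate the differences of single carriers and are no separate result.

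**Figure D3:**
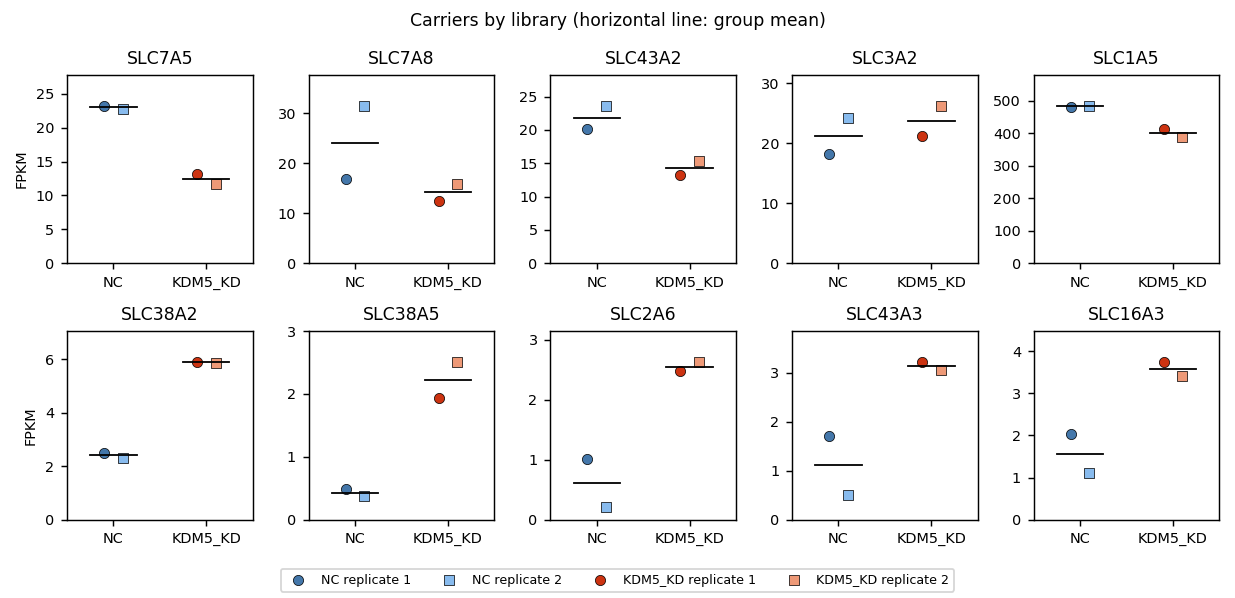
FPKM by library of 10 carriers, with axes that start at 0, circles and squares for replicates 1 and 2, and a horizontal line at each group mean. SLC7A5, SLC43A2 and SLC1A5 have close replicates and lower KDM5_KD values, SLC38A2 has close replicates and higher KDM5_KD values, and the NC libraries differ for SLC7A8, SLC2A6, SLC43A3 and SLC16A3.

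The direction of the differences followed the level of the transcript. Of the 19 members with a mean of at least 5 FPKM, 8 were higher and 11 were lower in KDM5_KD, with a median of -0.19, while the 6130 transcripts of the table at that level had a median of 0.04. Of the 18 tested members under 5 FPKM, 15 were higher and 3 were lower, with a median of 0.34, against 0.24 for the 2840 transcripts of the table at that level. SLC2A6, SLC38A5 and SLC7A3, among the 15, could only be tested because they were higher in KDM5_KD, which raises this count and median. The same filter acted on the other transcripts of the table. The whole table had the same order of low and high levels. After quantile normalization that order was no longer seen in the whole table, with medians of -0.05 both from 5 FPKM and under 5 FPKM. That normalization gives every library the same distribution of values, so the loss of the order over the whole table follows from the method. In the carriers the order was smaller. Of the 18 members under 5 FPKM, 10 were higher and 8 lower, with a median of 0.04. The members at 5 FPKM or more had a median of -0.19. Whether the carriers differ in this from the other transcripts was not tested. Among members at 5 FPKM or more, 4 lay above and 6 below in both KDM5_KD libraries, where 29.4% and 18.7% of all transcripts of that level did. Under 5 FPKM, 11 lay above and 2 below, where 47.4% and 9.08% of all transcripts did. SLC2A6, SLC38A5 and SLC7A3 were also among the 11. The 15 members that lay above included 12 in which NC replicate 1 exceeded NC replicate 2, and the 8 that lay below included 2. Over all transcripts tested, NC replicate 1 exceeded NC replicate 2 in 66.3% of those that lay above and in 53.1% of those that lay below. By family, the median difference ran from -0.25 in SLC1A (3 tested) to 0.37 in SLC16A (5 tested).

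**Figure D4:**
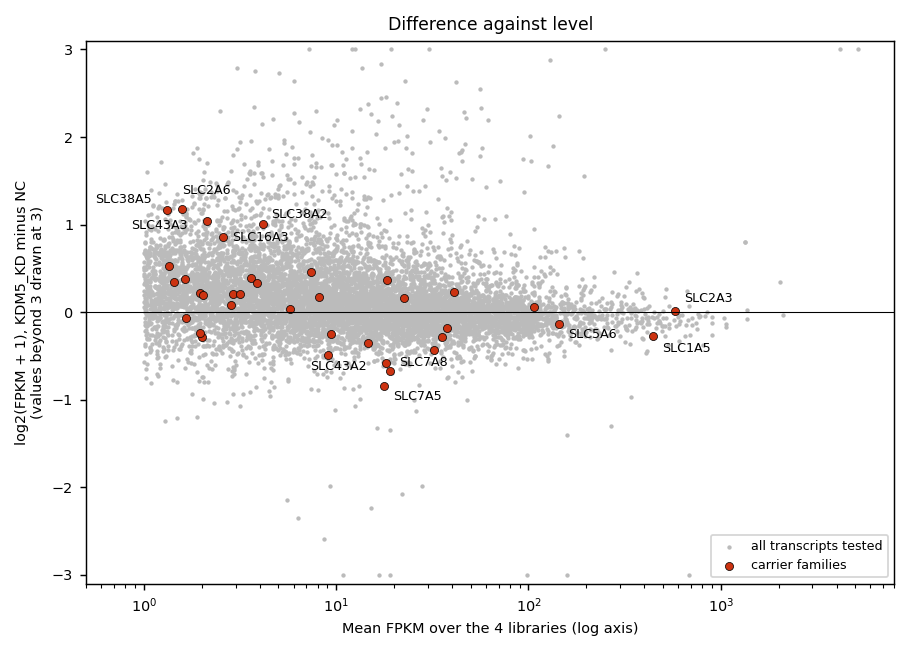
Difference of log2(FPKM + 1), KDM5_KD minus NC, against mean FPKM (log axis) for all 8970 transcripts tested (grey) and the 37 carriers (red), with values beyond 3 drawn at 3. The carriers that are at least 2-fold higher all have means under 5 FPKM, and SLC7A5, SLC7A8 and SLC43A2 lie near 20 FPKM below the axis.

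Genes that work with the carriers were read out of the same fit, from lists of textbook function, and none of their transcripts passed. Of the 10 tested transcripts among 21 listed partners and sodium pump subunits, 3 were at least 2-fold higher in KDM5_KD (4.52% of all transcripts tested) and 4 lay above in both libraries (35.1%), with a list median of 0.15. ARL6IP5, which binds and restrains the glutamate carrier SLC1A1, was at 2.84 and 1.77 FPKM in NC against 7.43 and 7.92 FPKM in KDM5_KD (difference 1.41, limma adjusted p of 0.0970). FXYD6 and FXYD5 encode small regulators of the sodium pump. FXYD6 was at 17.7 and 11.8 against 31.9 and 36.0 FPKM (limma adjusted p of 0.107), and FXYD5 at 1.79 and 0.752 against 3.70 and 3.39 FPKM (limma adjusted p of 0.161). BSG, or basigin, which escorts SLC16A1 to the surface, was at 67.7 and 65.3 against 76.7 and 73.1 FPKM, so that SLC16A1 stood at 0.592 and 0.625 times BSG in NC and at 0.451 and 0.495 times in KDM5_KD. BSG was picked after its values were seen.

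The amino acid response list holds kinases, transcription factors and targets of the stress response that amino acid shortage can set off. SLC38A2 and SLC7A5 are also known targets of that response. EIF2AK4 and GCN1 were listed but not among the accessions measured, so the kinases tested were EIF2AK1, EIF2AK2 and EIF2AK3. Of the 36 tested transcripts of the list, 17 lay above (35.1% of all transcripts tested) and 2 below (15.6%) in both KDM5_KD libraries. In the list, 2 were at least 2-fold higher (4.52%), and the median was 0.22. Without adjustment, 11 of the 36 had a limma p under 0.05, all of them higher in KDM5_KD, where 14.3% of all transcripts were. ATF4, the central transcription factor of the response, was at 163 and 176 FPKM in NC against 202 and 167 FPKM in KDM5_KD, and its target ASNS, asparagine synthetase, at 14.8 and 12.5 against 14.4 and 15.4 FPKM. Both genes, picked after their values were seen, had overlapping groups. The 2-fold members were PSAT1, an enzyme of serine synthesis, at 2.34 and 0.810 against 3.90 and 5.47 FPKM (limma adjusted p of 0.177), and EIF2AK2, a kinase that also belongs to the interferon response, at 1.66 and 0.300 against 2.93 and 3.68 FPKM (limma adjusted p of 0.191). Both had lower values in NC replicate 2 than in NC replicate 1. On the log2(FPKM + 1) scale VLDLR, NUPR1 and PHGDH were not counted as 2-fold. Their mean FPKM in KDM5_KD were 3.56, 2.33 and 2.02 times those in NC. EIF2AK2 and VLDLR, both among the 11 with a limma p under 0.05, had an NC mean under 1 FPKM. They could only be tested because they were higher in KDM5_KD.

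The list of lysosomal amino acid sensing and mTORC1 genes had 33 tested transcripts, of which 9 lay above (35.1% of all transcripts tested) and 5 below (15.6%), 0 reached a 2-fold difference, and the median was 0.02. Its most abundant transcript, LAMTOR3, a part of the lysosomal anchor of mTORC1, was at 85.5 and 78.7 against 96.5 and 85.8 FPKM. The list for control of glucose uptake had 33 tested transcripts, with 10 above (35.1% of all), 4 below (15.6%) and a median of 0.01. HK1, the hexokinase that traps glucose after uptake, was at 11.4 and 8.81 FPKM in NC against 24.8 and 20.1 FPKM in KDM5_KD (difference 1.08, SE 0.194, limma adjusted p of 0.106). RHOQ, a small GTPase of insulin-driven glucose uptake, was at 1.25 and 0.217 against 3.94 and 2.38 FPKM (limma adjusted p of 0.170). These were the 2 genes of that list with a difference of at least 2-fold on the log2(FPKM + 1) scale, and 4.52% of all transcripts tested were at least 2-fold higher. EPAS1, also in that list, was not counted at a difference of 0.998, although its mean FPKM in KDM5_KD was 2.11 times that in NC. RHOQ had an NC mean under 1 FPKM and entered the test through its KDM5_KD values.

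**Figure D5:**
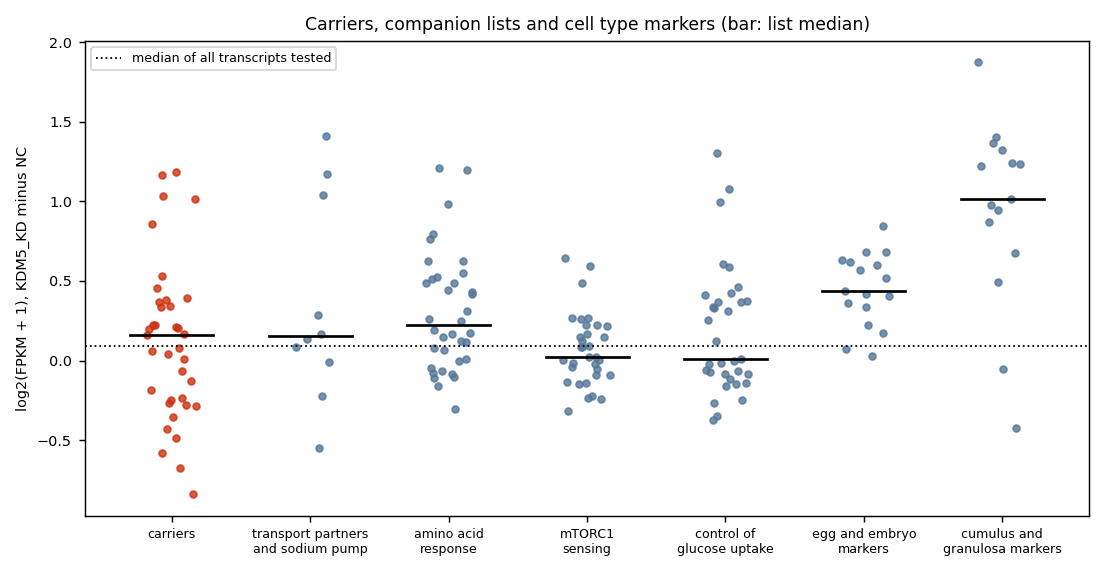
Difference of log2(FPKM + 1), KDM5_KD minus NC, for each tested transcript of the carriers (red), the companion lists and the cell type markers (blue), with a bar at each list median and a dotted line at the median of all transcripts tested (0.09). The carriers have a median of 0.16, while the cumulus and granulosa markers have a median of 1.01.

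The 40 carrier accessions under the filter had means of at most 0.972 FPKM, and 22 of them were under 0.1 FPKM. Of these 40, 7 were listed at 0 in all 4 libraries and 4 reached 1 FPKM in some library. An exact 0 can be a failed estimate in such a table, so these genes are listed and not called absent.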

How the data were processed

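Poly(A) RNA was captured with oligo(dT), and libraries were built from fragmented RNA with PCR amplification, per the labels' protocols; no molecular identifiers are mentioned. The submitters' processing notes name Trimmomatic, HISAT2, featureCounts and Cufflinks, without versions. The genome build and annotation are not given in the sources used here. The authors deposited FPKM values for 14517 accessions in 4 columns, 1 per library. Symbols came from a RefSeq gene table of ARS-UCD2.0 (14295 accessions matched, version removed). In that table, 9 of the 37 tested members overlap another protein-coding gene, and strand use is not stated.

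Log2(FPKM + 1) was fitted with limma 3.58.1 in R 4.3.3 (lmFit, eBayes with trend) for 8970 transcripts with a mean of at least 1 FPKM. P-values were adjusted over all of them by the Benjamini-Hochberg method, and a difference is that of group means on this scale, which understates changes of low transcripts. FPKM do not suit a count model, so none was fitted. The fit was tested on simulated data. Tables were made with pandas 2.3.3 and numpy 2.4.6, and plots with matplotlib 3.10.9, under Python 3.11.15.

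Per-library values are given for members past the threshold, at least 2-fold different, or among the 3 most abundant of their family, for paired heavy and light chains, and for the companion genes chosen in the same way; others named are marked as picked after their values were seen. Single values of 3 genes are not reported here. The members and lists were chosen with earlier results of these data known. Alternatives were a pseudocount of 0.1, no filter, a mean of at least 5 FPKM, 3 scalings, 2 variance models, rows summed by symbol, the replicate number as a block, and leaving out each library.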

Additional observations from a re-analysis of the deposited data

How the results depend on the processing

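With 2 libraries a group, precision rests on the replicates, since read counts are unknown. None of the 37 carriers passed in the 10 alternatives that kept all libraries. The number with p under 0.05 before adjustment lay between 5 (mean of at least 5 FPKM) and 13 (replicate block). The limma fit without NC replicate 1, where the lone control is assumed to vary like the other group, called SLC2A6, SLC43A3 and SLC7A8, and the other 3 such fits called none, so carriers called higher ranged from 0 to 2 and lower from 0 to 1. Over the 4 fits without a library, carriers at least 2-fold higher ranged from 1 to 5 and lower from 0 to 1, those above without overlap from 16 to 20 and below from 10 to 13, and the carrier median from 0.037 to 0.11. Over the whole table, calls then ranged from 3 to 362 higher and from 3 to 18 lower, with the largest numbers without NC replicate 1.

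With all libraries, no filter gave 2 higher and 1 lower over the table, 27 carriers above and a carrier median of 0.043. A pseudocount of 0.1 gave 5 carriers 2-fold higher (7.97% of all transcripts), and a common sum without microRNAs gave 3 (4.38%). A mean of at least 5 FPKM gave 11 higher over the table, 0 carriers 2-fold higher, 4 above and a carrier median of -0.19, since only 19 carriers remained. Median-ratio scaling left 2 carriers 2-fold higher and a carrier median of 0.026, and moved the median of all transcripts by -0.13. Quantile normalization left 0 carriers 2-fold higher, gave 13 below and a carrier median of -0.071, and moved the median of all transcripts by -0.14. Calls over the table were 6 higher with eBayes without a trend and 37 higher with robust eBayes. The increases' share of calls, 68% as reported, was 50% without the trend and 80.4% with robust eBayes. With the replicate number as a block, calls were 8 higher and 4 lower, and no carrier passed. The labels share replicate numbers and do not say what a number stands for (correlation of deviations 0.229 between same-numbered libraries).

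Signs turned for transcripts with small differences. Under median-ratio scaling SLC2A3 was at -0.13, SLC2A4 at -0.084, SLC38A7 at -0.027 and SLC7A6OS at -0.082. After quantile normalization SLC1A4 at -0.079, SLC2A4 at -0.19, SLC36A1 at -0.023, SLC38A7 at -0.20, SLC6A11 at -0.098 and SLC7A7 at -0.071. With a common sum without microRNAs SLC2A3 was at -0.0091. Leaving out 1 library at a time, the difference ranged from -0.53 to 0.031 for SLC1A1, from -0.18 to 0.20 for SLC2A3, from -0.057 to 0.13 for SLC2A4, from -0.033 to 0.37 for SLC36A1, from -0.17 to 0.034 for SLC38A11, from -0.026 to 0.18 for SLC38A7, from -0.034 to 0.36 for SLC3A2 and from -0.26 to 0.0014 for SLC5A6. The cause was not tested. Of the 473 comparisons of a named carrier with an alternative, these 22 reversed and 3 newly passed. SLC7A5 lay between -0.97 and -0.76, SLC38A2 between 0.75 and 1.25 and SLC38A5 between 0.85 and 2.13 in the alternatives in which they could be fitted.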
